A study of Mus musculus with 16 samples.

Results

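Rab GTPases were followed in RNA from mouse pancreatic islets in which insulin production was to be cut acutely. The members were all rows of the authors' deposited table whose gene name was Rab followed by a number and at most 1 letter and 1 further digit, which leaves out Rab effectors. This gave 42 genes of 10208 in all. By their known membrane systems, 9 were placed with secretion, 15 with endosomes, 12 with the endoplasmic reticulum (ER) and Golgi, and 6 elsewhere. GENCODE release M21 annotates 59 protein-coding genes of this name pattern. The other 17, among them Rab26 and Rab27b of secretory granules, had no row under such a name and could not be analysed.

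There were 7 islet samples with the label Cre+T and 9 with the label Cre-T, collected 6 days after tamoxifen. All 16 carried 1 genotype string, Ins1-/-:Ins2f/f:Pdx1CreERT:mTmG, on a mixed and mostly C57Bl/6 background, so all lacked Ins1 and had a loxP-flanked Ins2. CreERT is a tamoxifen-activated recombinase, driven here by regulatory sequence of Pdx1, which is active in pancreatic cells, and mTmG is a fluorescent reporter of recombination. The labels leave unsaid whether mice of the Cre-T group had the transgene, how old the mice were and whether each sample was a separate animal. The p-values therefore measure spread among these samples, which may be technical in part.

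Rab GTPases are small Ras-like proteins that mark membranes and direct the budding, movement, tethering and fusion of vesicles. Guanine nucleotide exchange factors (GEFs) load a Rab with GTP, GTPase-activating proteins (GAPs) end the signal, effectors bind the GTP form, and GDP dissociation inhibitors (GDIs) extract the lipid-anchored protein from membranes. In beta cells, Rab3 and Rab27 proteins sit on insulin granules and take part in docking and exocytosis, while Rab5, Rab7 and Rab11 organise endosomes and Rab1, Rab2 and Rab6 serve transport between ER and Golgi.

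The file held 1 result per gene from the authors' fit and no values per sample, so the spread within a group, the overlap of groups and the depth per sample cannot be shown. The direction of the fold changes is not named in the file. It is read as Cre+T over Cre-T from Ins2, at -0.47 ± 0.17 log2 units, and from Esr1, part of which is fused to Cre, at 9.30 ± 0.39 (limma, adjusted p = 0.041 for Ins2 and 5.4e-10 for Esr1 per the authors' deposited table). This reading takes the Esr1 transcript to be the scarcer one in Cre-T, although both groups carry Pdx1CreERT in their labelled genotype. Errors given as ± are standard errors (SE), obtained as fold change over moderated t, and group levels are estimates from the authors' mean and fold change with groups of 7 and 9 samples. A gene was called at the authors' limma adjusted p under 0.05. Islet hormone genes were abundant, with mean expression of 14.66 log2 CPM (counts scaled to library size) for Iapp and 14.13 for Gcg in the authors' deposited table. Acinar markers moved with the groups: 27 of 28 measured were higher and none lower in Cre+T by limma, with a median log2 fold change of 2.57 and a range of 1.31 to 4.01 in the authors' deposited table. At an unadjusted p under 0.05 all 28 were higher and none lower. Of the leukocyte markers, 5 of 10 were higher (median 0.91), and 3 of 4 of red blood cells (median 3.37), in the authors' deposited table. Beta cell markers had 7 of 14 higher and 1 lower (median 0.50), and duct markers 1 of 7 higher and 1 lower (median 0.59), by limma in the authors' deposited table. The lower beta cell marker was Ins2, from which the direction had been read, so its sign was set in advance. Endothelial markers had 2 of 11 higher and 0 lower (median 0.26), and stromal markers 2 of 7 higher and 1 lower (median 0.41). Other islet endocrine markers had 1 of 11 higher and 3 lower (median -0.24). Over all genes, 17.6% were higher and 20.1% lower. The part of these cells in the Rab results was not tested, and in bulk RNA a change in the number of cells and a change in RNA per cell cannot be told apart. The sample titles begin with 6 different numbers, of which 2 hold both groups, and a difference between these numbers could not be examined.

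Changes of Rab genes between Cre+T and Cre-T islets were mostly small. In the authors' deposited table, 7 were higher, 5 were lower and 30 did not pass by limma, so 12 of 42 (28.6%) were called against a background of 37.6% of all genes. The background was 17.6% for higher and 20.1% for lower genes. With Holm adjustment of the same p-values over all genes, none of the 12 passed, and the smallest adjusted p was 0.31 for Rab43. Of all genes, 1.35% passed with this adjustment. The median log2 fold change over the 42 Rab genes was 0.028, against -0.0030 over all genes of the authors' deposited table. It turned to -0.040 with the median ribosomal protein gene at 0 and to -0.11 with summed expression of both groups set equal, summed over the estimated group levels. The median size of the change, sign ignored, was 0.13 log2 units for Rab genes and 0.20 for all genes in the authors' deposited table. One Rab gene, Rab3b, passed 1.5-fold in the authors' deposited table, as did 13.0% of all genes in either direction. For 28 of the 30 Rab genes that did not pass, the 95% interval lay within 1.5-fold in either direction. The smallest change that could have been called had a median of 0.21 log2 units over the Rab genes, with a range of 0.12 to 1.28.

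**Figure D1:**
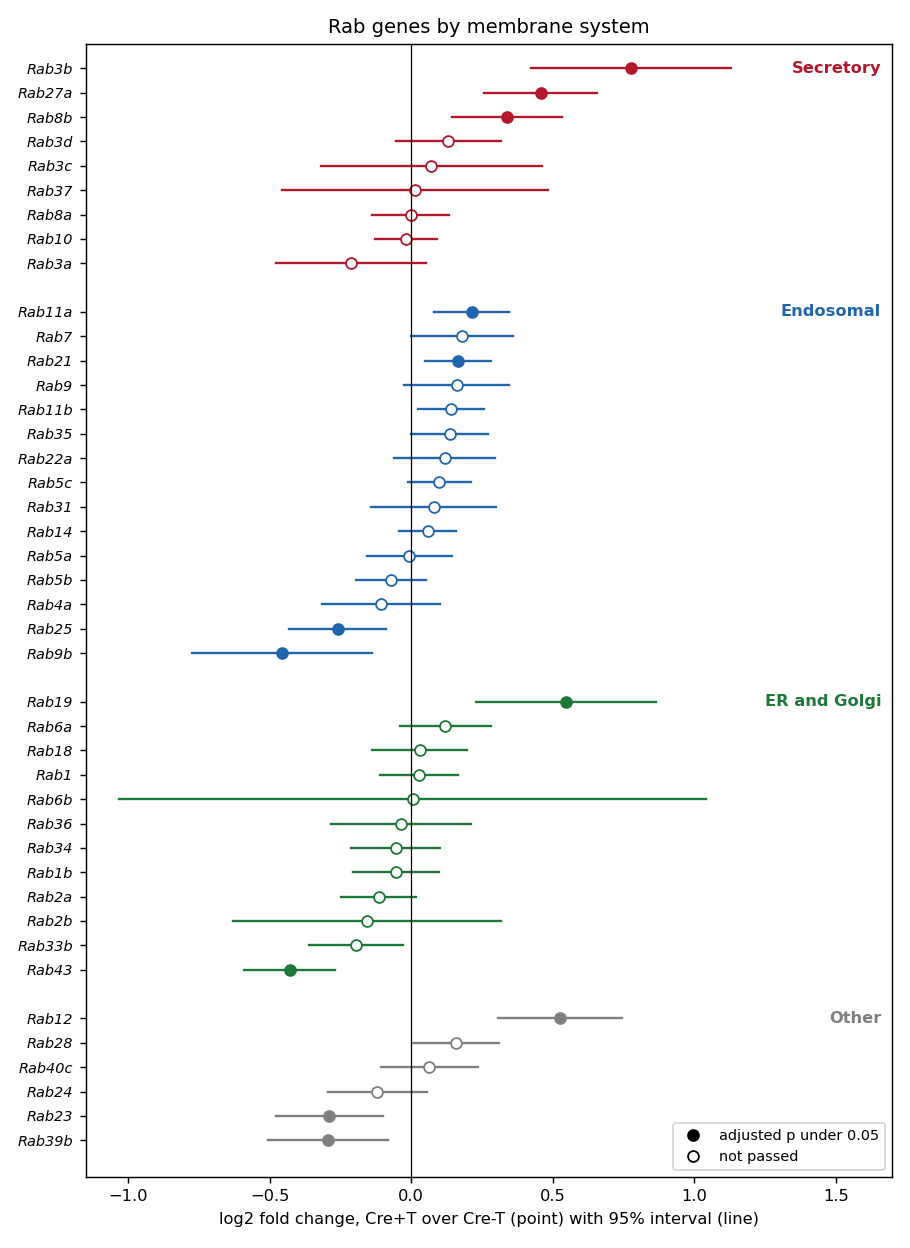
Log2 fold change of each of 42 Rab genes in Cre+T over Cre-T islets (horizontal axis), grouped by membrane system, with points for the authors' value and lines for the 95% interval; filled points had a limma adjusted p under 0.05. The 3 called secretory Rabs lie right of 0, endosomal Rabs were called on both sides, and most ER and Golgi intervals cross 0; Rab6b has the widest interval.

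The secretory Rabs that passed were all higher in Cre+T. Of 9 measured genes, 3 were higher, none was lower and 6 did not pass by limma in the authors' deposited table, and none was lower at an unadjusted p under 0.05 either. The called share was 33.3%, close to the background of 37.6%. Of all genes, 17.6% were higher and 20.1% lower, and the difference between the classes of Rabs was not tested. The median log2 fold change of the class was 0.071, but -0.071 with summed expression set equal. Under that scaling 2 of the 9 genes, Rab3a and Rab10, passed as lower, and 47.0% of all genes were called in either direction.

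Rab3b, a Rab of regulated exocytosis, had the largest change of the family. Its estimated level was 33.7 CPM in Cre+T and 19.7 CPM in Cre-T islets. The log2 fold change was 0.77 ± 0.17, a 1.71-fold rise with a 95% interval of 1.34 to 2.19 (limma, adjusted p = 0.0033 per the authors' deposited table). Rab27a, which recruits granuphilin to dock insulin granules at the plasma membrane, had the highest length-scaled level of the secretory class. Its estimated level was 359.9 CPM in Cre+T and 262.2 CPM in Cre-T islets. It rose 1.37-fold, at 0.46 ± 0.095 log2 units (limma, adjusted p = 0.0027 per the authors' deposited table). Rab8b, which guides carriers to the plasma membrane, rose 1.26-fold, at 0.34 ± 0.091 log2 units (limma, adjusted p = 0.010 per the authors' deposited table). Its estimated level was 32.8 CPM in Cre+T and 25.9 CPM in Cre-T islets. With summed expression set equal Rab8b no longer passed (0.20 log2 units, adjusted p = 0.088).

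The 6 secretory Rabs that did not pass lay between -0.21 and 0.13 log2 units in the authors' deposited table. Rab3a, the main Rab of synaptic vesicles and also found on insulin granules, was at -0.21 ± 0.13, with a 95% interval of the fold of 0.718 to 1.04 (limma, adjusted p = 0.19 per the authors' deposited table). Rab3d, abundant on the zymogen granules of acinar cells, was at 0.13 ± 0.088 in the authors' deposited table (adjusted p = 0.25 by limma). The part of acinar RNA in this value was not tested. Rab3c stood at 0.071 ± 0.18 and Rab37, a Rab of mast cell and insulin granules, at 0.013 ± 0.22 in the authors' deposited table, both with wide intervals. Rab8a and Rab10, a Rab of GLUT4 delivery in fat cells, were measured more tightly. The 95% interval of the fold was 0.909 to 1.10 for Rab8a and 0.914 to 1.07 for Rab10 in the authors' deposited table.

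The stretches upstream of the 3 secretory Rabs that rose are shown because these genes moved in the same direction. Each is the 200 bases that end 51 bases before the RefSeq start of the gene (GRCm38.p6), read 5′ to 3′ on the gene's strand, and none overlaps an exon of GENCODE M21. The stretches lie at chr9:73044560-73044759 on the plus strand for Rab27a, at chr4:108878820-108879019 on the plus strand for Rab3b and at chr9:66919756-66919955 on the minus strand for Rab8b. Capitals mark matches on either strand to 5 motifs that were chosen with the results known, namely TGACG (core of a cyclic AMP response element), CCACG (part of the ER stress element), TGATGNAA (core of an ATF4 type element), the E-box CACGTG and TATAAA, the letters of a TATA box. The stretches end upstream of where a TATA box lies, so the last is shown as letters only. The matches shown do not overlap each other.
Rab27a: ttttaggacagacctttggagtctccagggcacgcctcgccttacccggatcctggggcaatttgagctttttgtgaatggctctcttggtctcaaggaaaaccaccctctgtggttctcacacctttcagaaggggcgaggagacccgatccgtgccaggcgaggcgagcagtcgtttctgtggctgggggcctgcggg
Rab3b: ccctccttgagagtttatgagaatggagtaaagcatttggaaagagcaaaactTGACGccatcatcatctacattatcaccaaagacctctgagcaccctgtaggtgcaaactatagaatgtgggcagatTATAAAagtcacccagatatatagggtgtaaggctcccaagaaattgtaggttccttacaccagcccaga
Rab8b: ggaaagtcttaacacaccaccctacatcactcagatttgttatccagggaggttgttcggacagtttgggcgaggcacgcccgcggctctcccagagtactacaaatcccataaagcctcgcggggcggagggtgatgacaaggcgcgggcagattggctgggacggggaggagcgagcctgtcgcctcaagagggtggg

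Rab3b held 1 match to TGACG and 1 to TATAAA. No match to the 5 motifs was in the stretch of Rab27a or of Rab8b. Over 32851 RefSeq windows of the same length and position, TGACG was present in 12.7%, CCACG in 23.0%, TGATGNAA in 2.72%, CACGTG in 4.34% and TATAAA in 9.14%. The GC content was 58.5% for Rab27a, 43.0% for Rab3b and 60.0% for Rab8b. Of the 42 Rab genes, 37 had an entry in the RefSeq promoter table.

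Endosomal Rabs were called in both directions. Of 15 measured genes, 2 were higher, 2 were lower and 11 did not pass by limma in the authors' deposited table, a called share of 26.7% against the background of 37.6%. The median log2 fold change was 0.10, but -0.043 with summed expression set equal. Rab12 and Rab39b, which also act at endosomes, were called but are not counted in this class. Rab11a, the Rab of recycling endosomes, had an estimated 152.7 CPM in Cre+T and 131.7 CPM in Cre-T islets. It rose 1.16-fold, at 0.21 ± 0.063 log2 units (limma, adjusted p = 0.016 per the authors' deposited table). Rab21, which guides the endocytosis of integrins, rose 1.12-fold, at 0.17 ± 0.055 (limma, adjusted p = 0.027 per the authors' deposited table). Neither passed with the median ribosomal protein gene at 0, with adjusted p of 0.074 for Rab11a and 0.16 for Rab21. With summed expression set equal the values were 0.37 and 0.76.

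The endosomal Rabs that fell were Rab25 and Rab9b. Rab25, an epithelial relative of Rab11, had an estimated 39.9 CPM in Cre+T and 47.8 CPM in Cre-T islets. Its log2 fold change was -0.26 ± 0.081, or 0.835 of the Cre-T level (limma, adjusted p = 0.020 per the authors' deposited table). Rab9b, a form of the Rab that returns receptors from late endosomes to the Golgi, had an estimated 7.86 CPM in Cre+T and 10.8 CPM in Cre-T islets. It stood at -0.46 ± 0.15, or 0.729 of the Cre-T level (limma, adjusted p = 0.027 per the authors' deposited table).

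The other 11 endosomal Rabs ranged from -0.11 to 0.18 log2 units in the authors' deposited table. Rab7, the Rab of late endosomes and lysosomes, was at 0.18 ± 0.085 (limma, adjusted p = 0.10 per the authors' deposited table). The early endosome Rabs Rab5a (-0.0069 ± 0.071), Rab5b (-0.072 ± 0.059) and Rab5c (0.10 ± 0.052) did not pass by the authors' deposited table, with adjusted p of 0.95, 0.34 and 0.14. Rab11b, the close relative of Rab11a, missed the threshold at 0.14 ± 0.055 (limma, adjusted p = 0.056 per the authors' deposited table), and so did Rab35, of fast recycling, at 0.14 ± 0.064 (limma, adjusted p = 0.10 per the authors' deposited table). Rab9 (0.16 ± 0.087), Rab22a (0.12 ± 0.084), Rab31 (0.079 ± 0.10), Rab14 (0.058 ± 0.047) and the early recycling Rab Rab4a (-0.11 ± 0.099) did not pass by the authors' deposited table.

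Most Rabs of the ER and Golgi did not pass. Of 12 measured genes, 1 was higher, 1 was lower and 10 did not pass by limma in the authors' deposited table, a called share of 16.7% against the background of 37.6%. Their median log2 fold change was -0.046. It stayed negative under the other 3 scalings by construction, since these lower every value or hardly move it. With summed expression set equal it was -0.19, and the medians of the secretory and endosomal Rabs were then negative too. Rab43, a Rab of Golgi structure and of receptor transport to the cell surface, had the smallest p of all Rab genes. It had an estimated 41.1 CPM in Cre+T and 55.4 CPM in Cre-T islets. It fell by 0.43 log2 units with an SE of 0.075, to 0.742 of the Cre-T level with a 95% interval of 0.665 to 0.829 (limma, adjusted p = 0.0010 per the authors' deposited table). Rab43 shares 75.4% of its exon bases with the protein-coding model Gm45140 on the same strand in M21, so its value is uncertain where the authors' counting split or dropped shared reads. Rab19, a little studied Rab found at the Golgi, rose 1.46-fold, at 0.55 ± 0.15 (limma, adjusted p = 0.011 per the authors' deposited table). It was expressed at a low level, an estimated 10.4 CPM in Cre+T and 7.15 CPM in Cre-T islets.

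Rab1, Rab1b and Rab2a, which serve the main route from the ER through the Golgi, had narrow intervals. Rab1 stood at 0.026 ± 0.065 and Rab1b, its close relative, at -0.055 ± 0.071 in the authors' deposited table. Rab2a, which acts between ER and Golgi and also in the making of dense-core granules in worms, had the highest length-scaled level of all Rabs. Its change was -0.11 ± 0.063, with a 95% interval of the fold of 0.842 to 1.01 (limma, adjusted p = 0.16 per the authors' deposited table). It passed as lower with the median ribosomal protein gene at 0 (-0.18, adjusted p = 0.030) and with summed expression set equal (-0.26, adjusted p = 0.0038). Rab33b, of the Golgi and of autophagosome formation, was at -0.20 ± 0.078 (limma, adjusted p = 0.058 per the authors' deposited table) and passed as lower under the same 2 scalings, with adjusted p of 0.015 and 0.0026. Rab6a, of retrograde transport, was at 0.12 ± 0.076 and Rab18, of the ER and lipid droplets, at 0.029 ± 0.080 in the authors' deposited table. Rab34 (-0.055 ± 0.074), Rab36 (-0.037 ± 0.12) and Rab2b (-0.16 ± 0.22) did not pass by the authors' deposited table. Rab6b, the neuronal form, was the least certain of the family at 0.0053 ± 0.49 in the authors' deposited table.

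Among the 6 Rabs placed in no class, 1 was higher, 2 were lower and 3 did not pass by limma in the authors' deposited table, a called share of 50.0% against the background of 37.6%. Rab12 and Rab39b also act at endosomes, so this share and the endosomal counts depend on where they are placed. Rab12, which sends recycling cargo such as the transferrin receptor to lysosomes, had an estimated 88.4 CPM in Cre+T and 61.4 CPM in Cre-T islets. It rose 1.44-fold, at 0.53 ± 0.10 log2 units, with a 95% interval of 1.24 to 1.68 (limma, adjusted p = 0.0021 per the authors' deposited table). Rab23, a brake on Hedgehog signalling that acts at the cilium, had an estimated 19.8 CPM in Cre+T and 24.2 CPM in Cre-T islets. It was at -0.29 ± 0.090, or 0.818 of the Cre-T level (limma, adjusted p = 0.020 per the authors' deposited table). Rab39b, a Rab of neurons whose human gene is mutated in X-linked intellectual disability, had an estimated 69.0 CPM in Cre+T and 84.5 CPM in Cre-T islets. Its change was -0.29 ± 0.10, or 0.816 of the Cre-T level (limma, adjusted p = 0.030 per the authors' deposited table). An annotated antisense RNA on the other strand shares 18.6% of the exon bases of Rab39b. Rab28 (0.16 ± 0.073), Rab40c (0.064 ± 0.081) and Rab24 (-0.12 ± 0.082) did not pass by the authors' deposited table. Rab24 shares 62.4% of its exon bases with Prelid1 on the other strand, and no strand of counting is given in the sources, so reads of the pair cannot be told apart.

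**Figure D2:**
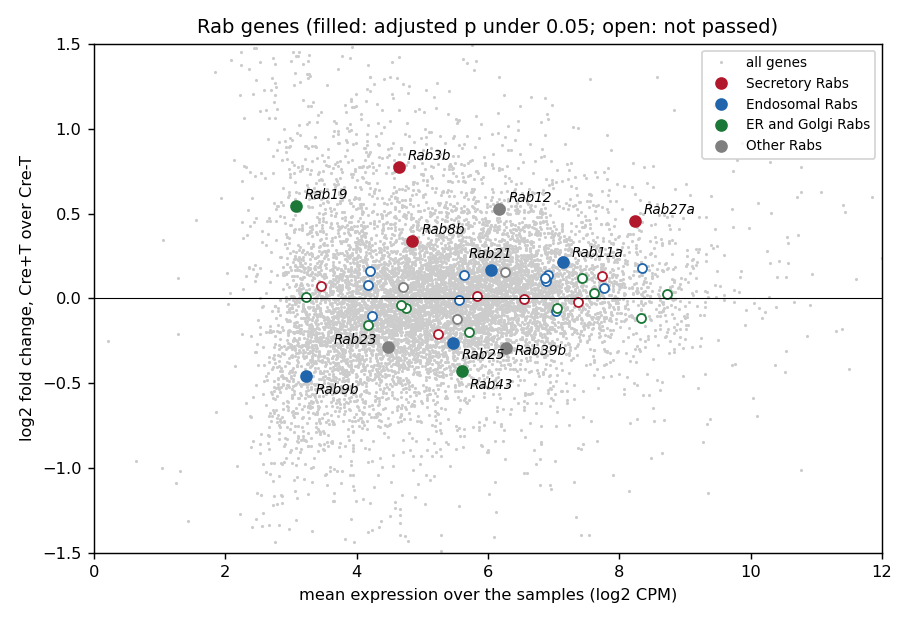
Log2 fold change in Cre+T over Cre-T islets (vertical axis) against mean expression in log2 CPM (horizontal axis), with all genes in grey and Rab genes in the colour of their class; filled Rab points had a limma adjusted p under 0.05. The 12 called Rabs are named, Rab27a lies farthest right among them, and 196 genes lie outside the axes.

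Close relatives of the family are set side by side here by their 95% intervals in log2 units. In the Rab3 set, Rab3b passed at 0.77 log2 units, while Rab3a, Rab3c and Rab3d did not pass, with 95% intervals that end at 0.053, 0.46 and 0.32 in the authors' deposited table. The interval of Rab3b began at 0.42, so it lay clear of those of Rab3a and Rab3d and overlapped that of Rab3c. For Rab8b the interval was 0.15 to 0.53 and for Rab8a -0.14 to 0.13, with no overlap in the authors' deposited table. Rab9b had an interval of -0.77 to -0.14 and Rab9 one of -0.024 to 0.35, again without overlap in the authors' deposited table. The intervals of Rab11a (0.080 to 0.35) and Rab11b (0.023 to 0.26) overlapped in the authors' deposited table. No difference between 2 genes was tested, since that needs values per sample.

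Levels of different genes were compared as the mean over all samples in log2 CPM per kb of annotated exon. On this scale the family spanned 7.38 log2 units. Rab2a was highest at 7.24, followed by Rab7 at 6.96, Rab1 at 6.80, Rab27a at 6.28 and Rab1b at 5.87 log2 CPM per kb. The lowest were Rab23 at 1.42, Rab9b at 1.24, Rab6b at 0.89 and Rab3c at -0.13 log2 CPM per kb. Within the secretory class, Rab27a led Rab3d (5.66), Rab10 (5.56), Rab8a (4.31), Rab3a (4.08), Rab37 (3.41), Rab3b (2.82) and Rab8b (2.60). The spread of a level over samples is not in the authors' deposited table, so neighbours in this order cannot be separated. Scaling by the longest transcript moved 2 genes by more than 5 ranks, Rab14 and Rab37. Of the 12 called Rabs, 2 (Rab27a and Rab11a) were among the 10 with the highest level and 6 were among the 12 with the lowest. Of all Rab genes 28.6% were called, and of all genes 37.6%. The share by level over all genes was not computed, and a link between level and change was not tested.

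**Figure D3:**
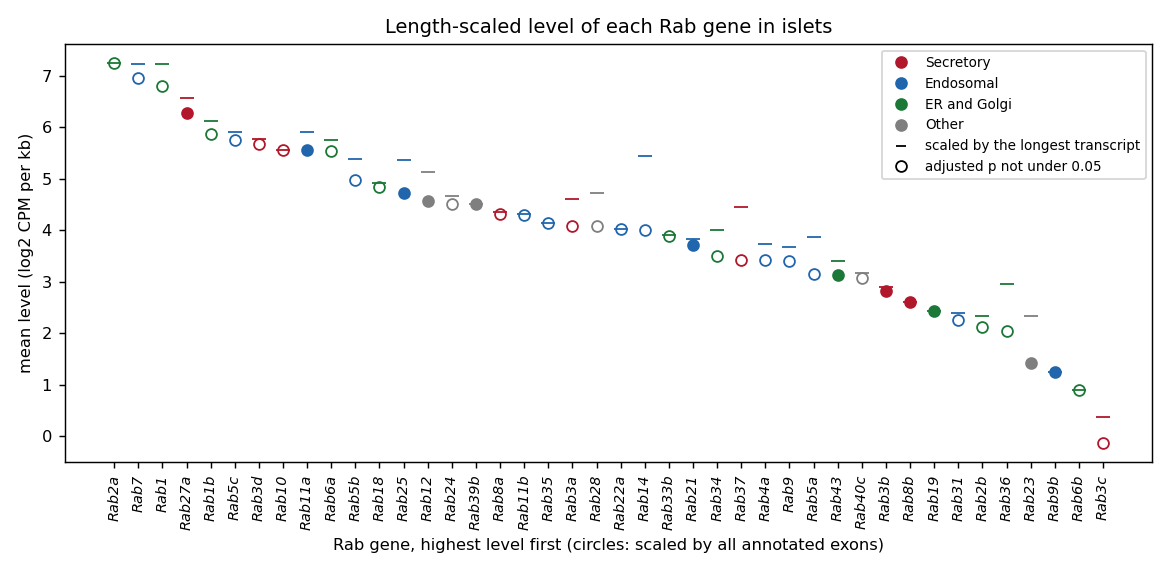
Mean length-scaled level of each Rab gene over all samples, in log2 CPM per kb (vertical axis), in descending order; circles are scaled by all annotated exons and dashes by the longest transcript, colours give the class and filled circles a limma adjusted p under 0.05. Rab2a, Rab7 and Rab1 are highest, and Rab3c is lowest at -0.13.

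Regulators of Rabs were called in both directions. Of 48 measured GEF genes, 3 were higher, 13 were lower and 32 did not pass by limma in the authors' deposited table (median log2 fold change -0.059). The called share was 33.3%, against 37.6% of all genes (17.6% higher and 20.1% lower). Hps1, part of the exchange factor for Rab32 and Rab38, fell to 0.663 of the Cre-T level, at -0.59 ± 0.089 (limma, adjusted p = 3.9e-04 per the authors' deposited table). Trappc12 of the TRAPP tethering complex was at -0.40 ± 0.090 and St5, a DENN-domain protein, at 0.40 ± 0.097 in the authors' deposited table, both called. Among the GAPs, 7 of 37 were higher, 10 were lower and 20 did not pass by limma in the authors' deposited table (median 0.038), so that 45.9% were called against the 37.6% of all genes. The smallest p were those of Tbc1d31, a centriolar protein, at -0.77 ± 0.13, Tbc1d17 at -0.46 ± 0.081 and Tbc1d23, which tethers endosomal carriers at the Golgi, at -0.47 ± 0.082 in the authors' deposited table. All 3 were lower in Cre+T. Rab3gap1 and Rab3gap2 are counted among both the GEFs and the GAPs.

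Of 7 genes of prenylation, escort and GDI function, 1 was higher, 1 was lower and 5 did not pass by limma in the authors' deposited table (median 0.023), or 28.6% called against 37.6% of all genes. Arl6ip5, a relative of the prenylated Rab acceptor, rose by 0.38 ± 0.094, and Rabggta, the alpha subunit of the transferase that attaches lipid to Rabs, fell by 0.33 log2 units with an SE of 0.11 in the authors' deposited table.

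Effectors showed calls in both directions for each membrane system. Of 19 secretory effectors, 2 were higher, 4 were lower and 13 did not pass by limma in the authors' deposited table (median 0.0020), or 31.6% called against 37.6% of all genes. The gene name Mical3 stood on 2 rows, of which the row with the higher mean was counted, at 0.14 ± 0.12 (limma, adjusted p = 0.36 per the authors' deposited table); the row left out was at 0.33 ± 0.12 (limma, adjusted p = 0.036 per the authors' deposited table). Myrip, which links Rab27a on granules to myosin, was at -0.74 ± 0.19, Unc13b, a priming factor of exocytosis, at -0.25 ± 0.067 and Sytl2, a Rab27-binding synaptotagmin-like protein, at 1.20 ± 0.36, all called in the authors' deposited table. Of 33 endosomal effectors, 4 were higher, 5 were lower and 24 did not pass by limma in the authors' deposited table (median 0.027), or 27.3% called against 37.6% of all genes. The inositol phosphatase gene Inpp5b was at -0.51 ± 0.078, and the lysosomal tether subunits Vps41 (-0.25 ± 0.050) and Vps33a (-0.35 ± 0.091) were also lower in the authors' deposited table. Of 20 ER and Golgi effectors, 2 were higher, 6 were lower and 12 did not pass by limma in the authors' deposited table (median -0.12), or 40.0% called against 37.6% of all genes. The golgins Golga5 (-0.39 ± 0.066) and Golga2 (-0.27 ± 0.049) and the tether subunit Vps52 (-0.36 ± 0.072) had the smallest p and were lower in the authors' deposited table.

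**Figure D4:**
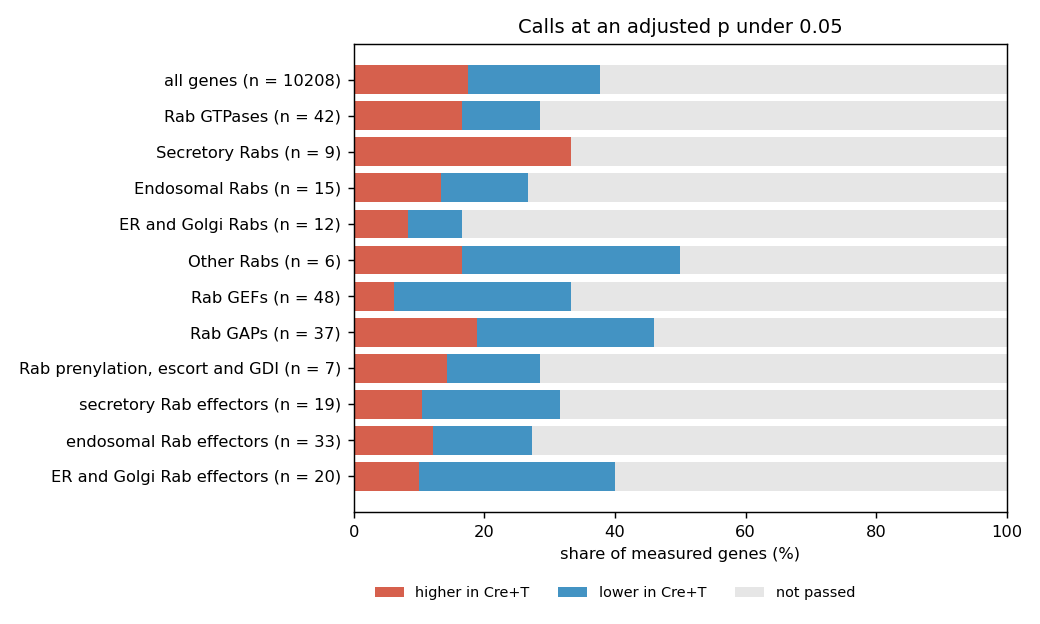
Share of measured genes, in percent (horizontal axis), that were higher in Cre+T, lower in Cre+T or not passed at a limma adjusted p under 0.05, for all genes, the Rab genes, each class of Rabs and the lists of Rab regulators and effectors. Of the Rab genes 28.6% were called against 37.6% of all genes, and 3 of 48 GEF genes were higher and 13 lower.

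Regulators and partners of the called Rabs, and of Rab10, which was not called, were picked by known biochemistry after their values were seen. Those named here did not follow 1 direction, and of all genes 17.6% were higher and 20.1% lower. The Rab27 partners Myrip and Sytl2, called in opposite directions, are given above. Madd, the exchange factor of Rab3 and Rab27 proteins, was at -0.44 ± 0.12 (limma, adjusted p = 0.0099 per the authors' deposited table), while Rab3b and Rab27a were higher. Sytl4, which encodes granuphilin, was at 0.34 ± 0.14 and did not pass (limma, adjusted p = 0.073 per the authors' deposited table). Exph5, another Rab27 effector, was at 0.10 ± 0.12 and the Rab3 effector Rims2 at 0.16 ± 0.12, both not passed in the authors' deposited table. The Rab3 GAP subunits Rab3gap1 (0.058 ± 0.056) and Rab3gap2 (0.21 ± 0.10) did not pass by the authors' deposited table. Rab3ip, the exchange factor of Rab8 proteins, was at -0.0052 ± 0.078 in the authors' deposited table. Ankrd27, an exchange factor of Rab21, was lower at -0.27 ± 0.089 (limma, adjusted p = 0.026 per the authors' deposited table). Wdr44, an effector of Rab11, was higher at 0.41 ± 0.12 (limma, adjusted p = 0.019 per the authors' deposited table), and Dennd3, the exchange factor of Rab12, did not pass at 0.15 ± 0.14 in the authors' deposited table. Tbc1d4 and Tbc1d1, GAPs with Rab10 among their targets, were higher, by 0.97 ± 0.23 and 0.27 ± 0.10 in the authors' deposited table. Rab10 itself was at -0.019 ± 0.052.

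The calls depended on how the libraries were scaled. Setting the median ribosomal protein gene to 0 shifted all fold changes by 0.068 log2 units, and setting the summed expression of both groups equal shifted them by 0.14. That sum ran over the group levels estimated from the authors' mean and fold change, not over counts of the libraries. Abundant genes weigh most in it, among them Ins2 at -0.47, Iapp at 0.54 and Amy2a5 at 2.77 log2 units. Of all called genes, 46.7% were higher under the authors' scaling, 30.4% with the ribosomal and 17.9% with the summed scaling. For the Rab genes, 7 higher and 5 lower became 5 and 7 with the ribosomal scaling and 4 and 14 with the summed scaling. Called in either direction were 37.6% of all genes under the authors' scaling, 39.9% with the ribosomal and 47.0% with the summed scaling. Rab3b, Rab12, Rab27a and Rab19 remained higher under these scalings and with the median gene at 0. Rab43, Rab9b, Rab23, Rab25 and Rab39b remained lower. For these lower genes that was fixed in advance, since both scalings lower every value and the median gene at 0 hardly moves it.

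**Figure D5:**
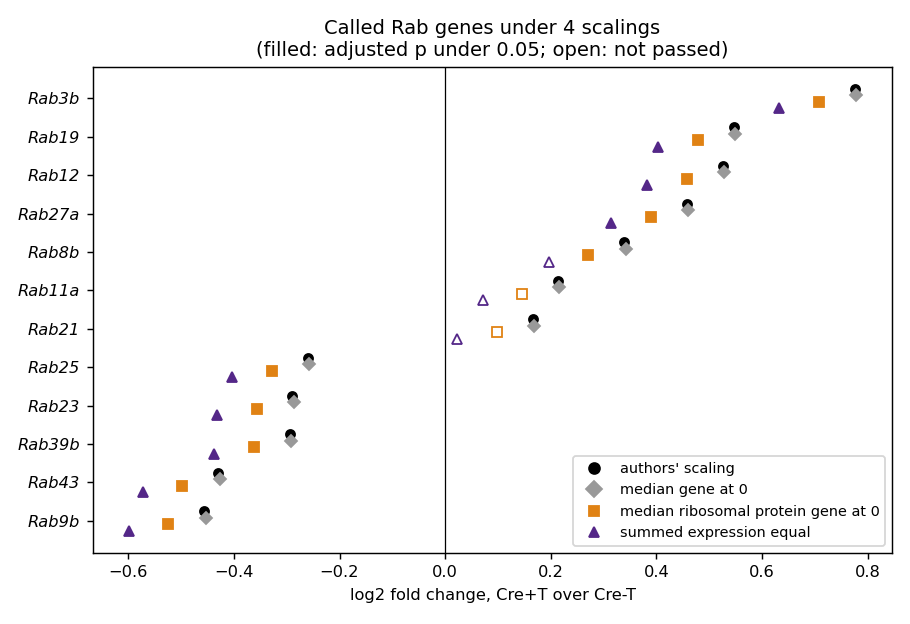
Log2 fold change in Cre+T over Cre-T islets (horizontal axis) of the 12 called Rab genes under the authors' scaling and 3 others; filled symbols had an adjusted p under 0.05. Rab8b, Rab11a and Rab21 turn to open symbols with summed expression set equal, and Rab11a and Rab21 also with the ribosomal scaling. No called gene crosses 0, which the lower ones could not do under these shifts.

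The called Rabs lie on 8 chromosomes of GRCm38, in GENCODE M21 coordinates. Rab3b (ENSMUSG00000003411.5) spans bases 108879063 to 108943324 of chromosome 4. Another 3 lie on chromosome 9, namely Rab27a (ENSMUSG00000032202.6) from 73044854 to 73097629, Rab8b (ENSMUSG00000036943.8) from 66843664 to 66919687 and Rab11a (ENSMUSG00000004771.7) from 64715299 to 64737758. Chromosome 6 holds Rab43 (ENSMUSG00000030055.11) from 87788853 to 87812164 and Rab19 (ENSMUSG00000029923.4) from 39381175 to 39390380. Rab12 (ENSMUSG00000023460.7) is on chromosome 17 from 66494512 to 66519729 and Rab25 (ENSMUSG00000008601.7) on chromosome 3 from 88542029 to 88548300. Chromosome X holds Rab9b (ENSMUSG00000043463.6) from 136858147 to 136868755 and Rab39b (ENSMUSG00000031202.5) from 75572046 to 75578231. Rab23 (ENSMUSG00000004768.9) is on chromosome 1 from 33719887 to 33742564, and Rab21 (ENSMUSG00000020132.9) on chromosome 10 from 115287084 to 115315594.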

How the data were processed

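RNA of 16 islet samples was read as 150 bp pairs, 20000000 per sample per the labels, from Illumina TruSeq V2 libraries. The submitters' processing notes name TopHat2, limma and the build GRCm38. Not given in the sources used here are the read counter, any filter on genes and which samples were fitted. The deposited table gives, per the file headers, a log2 fold change, a mean log2 expression, a t and a B score (moderated t and log odds), and p-values with adjusted p-values and q-values. The mean was read as log2 CPM from voom, since its linear values sum to 928729 over the rows. The deposited adjusted p-value equalled the Benjamini-Hochberg value over all 10208 rows.

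The moderated t and p imply 16.1 degrees of freedom in each row tested, and all 16 samples in 2 groups would leave 14 before the prior. SE is the fold change divided by t, and 95% intervals use 16.1 degrees of freedom. Lengths and positions come from GENCODE M21, where 10190 gene IDs matched and 18 did not. Scripts used Python 3.11.15, pandas 2.3.3 and scipy 1.17.1, and were tested on simulated data. The depth per sample is unknown.

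The members, the classes and the lists were chosen with earlier results of these data known. All Rab genes are named, and for each list of regulators and effectors the 3 genes with the smallest p, except 1 gene that is not reported here; further names were picked with their values known. The alternatives tried were other thresholds, Holm adjustment, a minimum change, a minimum mean, core class members and 3 scalings.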

Additional observations from a re-analysis of the deposited data

How the results depend on the processing

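The table holds no values per sample, so no replicate could be left out and depth could not be weighed per sample. No paired analysis was possible because the replicate numbers only follow the order of the samples and the table holds results of 1 fit. With Holm adjustment of the limma p-values no Rab gene passed in any class (0 higher, 0 lower), the smallest adjusted p being 0.31 for Rab43; 16 Rab genes had an unadjusted p under 0.05. At an adjusted p under 0.01, 3 Rab genes were higher and 1 lower, with 0 endosomal in either direction and 0 higher of the ER and Golgi. At an adjusted p under 0.1, 2 ER and Golgi Rabs were lower. With a change of at least 0.3 log2 units, 2 Rab genes were lower, and 0 endosomal Rabs were higher and 1 lower. With genes of a mean of at least 5 log2 CPM, 4 Rab genes were higher and 3 lower; 1 secretory Rab was higher, 1 endosomal Rab lower and 0 ER and Golgi Rabs higher, since fewer genes are tested. With core class members, 0 ER and Golgi Rabs were higher. Of all genes, 1.35% passed with Holm adjustment, 18.0% at an adjusted p under 0.01 and 47.3% at one under 0.1. The share was 28.1% with a change of at least 0.3 log2 units, and 36.8% among genes with the minimum mean.

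Under the ribosomal scaling, 0 endosomal Rabs were higher and 3 ER and Golgi Rabs lower. Over all genes, 39.9% were called under this scaling and 47.0% with summed expression set equal. With summed expression set equal, 4 Rab genes were higher and 14 lower (median -0.11), 2 secretory Rabs lower (median -0.071), 0 endosomal Rabs higher and 4 lower (median -0.043), and 5 ER and Golgi Rabs lower (median -0.19). The sign of uncalled Rabs turned by construction of the shift. With summed expression equal, the log2 fold changes were -0.0019 for Rab11b, -0.0062 for Rab35, -0.043 for Rab5c, -0.022 for Rab6a, -0.011 for Rab3d, -0.024 for Rab22a, -0.084 for Rab14, -0.078 for Rab40c, -0.064 for Rab31, -0.12 for Rab1, -0.071 for Rab3c, -0.11 for Rab18, -0.13 for Rab37 and -0.14 for Rab6b. With the ribosomal scaling they were -0.0093 for Rab14, -0.0035 for Rab40c, -0.041 for Rab1, -0.038 for Rab18, -0.055 for Rab37 and -0.062 for Rab6b, and with the median gene at 0, Rab8a stood at 0.00093.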

Other observations

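Some subunits of tethering complexes that bind or activate Rabs were lower in Cre+T. These complexes were singled out after the values were seen. Their subunits are already counted above among the GEFs, the endosomal effectors or the ER and Golgi effectors, so they are not further genes. Their counts at an adjusted p under 0.05 stand beside a background of 20.1% lower, 17.6% higher and 37.6% called over all genes. For the counts at an unadjusted p under 0.05, a looser threshold, the share over all genes was not computed. TRAPP is a tether and exchange factor of Rab1 and Rab11; of 14 measured subunits, none was higher, 6 were lower and 8 did not pass by limma in the authors' deposited table (median log2 fold change -0.15). At an unadjusted p under 0.05, 1 was higher and 7 were lower. Of 6 measured HOPS subunits, which tether late endosomes and lysosomes with Rab7, 3 were lower, none was higher and 3 did not pass by limma in the authors' deposited table (median -0.19), with the same counts at an unadjusted p under 0.05. GARP tethers endosomal carriers at the Golgi, and 2 of its 4 measured subunits were lower and none higher by limma in the authors' deposited table (median -0.25), again with the same counts at an unadjusted p under 0.05.

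Golgins, the long tethers of the Golgi that bind several Rabs, were called in both directions. All those measured are also counted above among the ER and Golgi effectors. Of 9 measured golgins, 4 were lower, 2 were higher and 3 did not pass by limma in the authors' deposited table (median -0.12), against the 20.1% lower and 17.6% higher of all genes; this set too was picked with its values known. Gcc1 (0.37 ± 0.11) and Gcc2 (0.38 ± 0.094) were the 2 that were higher in the authors' deposited table. For 6 Rab genes, another annotated gene shares over 10% of the exon bases, and no strand of counting is stated.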
